A study of Caenorhabditis elegans with 2 samples.

Results

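The genes of glycolysis, the pyruvate dehydrogenase complex, the citrate cycle, the glyoxylate cycle and gluconeogenesis were followed in heated *Caenorhabditis elegans* with and without the p38 kinase PMK-1. They were chosen as 43 WormBase gene names. The rule uses no level or ratio, but it was set with earlier results of these data known. Of these, 39 were listed with at least 1 uniquely mapped read in a library, out of 8730 genes with a read in the whole data set. hxk-2, pfk-1.2, mdh-1 and pck-1 were not analysed here. The 2 libraries were made from whole young adults of the N2 Bristol wild type and of strain KU25, which carries the deletion pmk-1(km25). Both strains were grown at 20 °C with *Escherichia coli* OP50 as food and then held at 35 °C for 5 h, so the libraries share the heat and differ in genotype. Worms kept without heat were not analysed here. The number of worms in a library is not given in the sources used here. pmk-1 was not analysed here either, so the deletion was not checked in these libraries.

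Glycolysis splits glucose into pyruvate in the cytosol, and the pyruvate dehydrogenase complex of the mitochondrion turns pyruvate into acetyl-CoA, which the citrate cycle oxidises to feed the respiratory chain. The glyoxylate cycle is a shortcut that skips the steps of the citrate cycle that release carbon dioxide. *C. elegans* is among the few animals that have it, and with gluconeogenesis it lets the worm make sugar from stored fat. Several steps are encoded by more than 1 gene, and these copies can differ in the tissue or the stage where they are used.

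Unique reads summed to 5.78 M for the wild type and 5.23 M for the mutant, and the 39 genes took 0.863% and 0.944% of them. With 1 library per genotype there is no replicate error and no test of genotype was made. Ratios are given as mutant over wild type in CPM, the reads scaled to 1 M reads of the library. The exact 95% interval behind each ratio comes from the binomial share of the mutant and holds no error other than that of counting. A call needed a read level of 50 in either library, a difference of at least 2-fold and an interval that excluded 1. The median log2 ratio of the 5197 genes at this read level was -0.33. It moved to -0.24 with TMM factors, to -0.28 with median-of-ratios factors and to -1.49 when 35 markers of body tissues were set to a median of 0. That last scaling divides every ratio by 2.23. Values relative to all genes do not depend on the scaling.

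At the 2-fold limit the pathway as a whole did not stand apart from other genes. Among the 35 members at the read level, 5 passed the limit on the higher side, which is 14.3%, against 17.6% of all genes. They were icl-1 of the glyoxylate cycle, idhg-2 of the citrate cycle, and aldo-1, gpd-2 and gpd-3 of glycolysis. gpd-4 alone, 1 gene, passed it on the lower side, which is 2.86% of the members against 1.75% of all genes. Both shares lie near those of all genes. Under body-tissue scaling 0 members were called higher, against 5.98% of all genes, and 20 lower, which is 57.1% against 67.9% of all genes. With the weaker condition that the interval excluded 1, 15 members were higher (42.9%, against 30.2% of all genes), 9 were lower (25.7%, against 53.6%), and the interval of the other 11 reached 1. The members' median log2 ratio was 0.07, which is 0.40 above the median of all genes, and 29 of the 35 lay above that median. With no read level the difference between the medians was 0.06, because the median of all genes was then 0.01 and that of the 39 members stayed at 0.07.

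**Figure D1:**
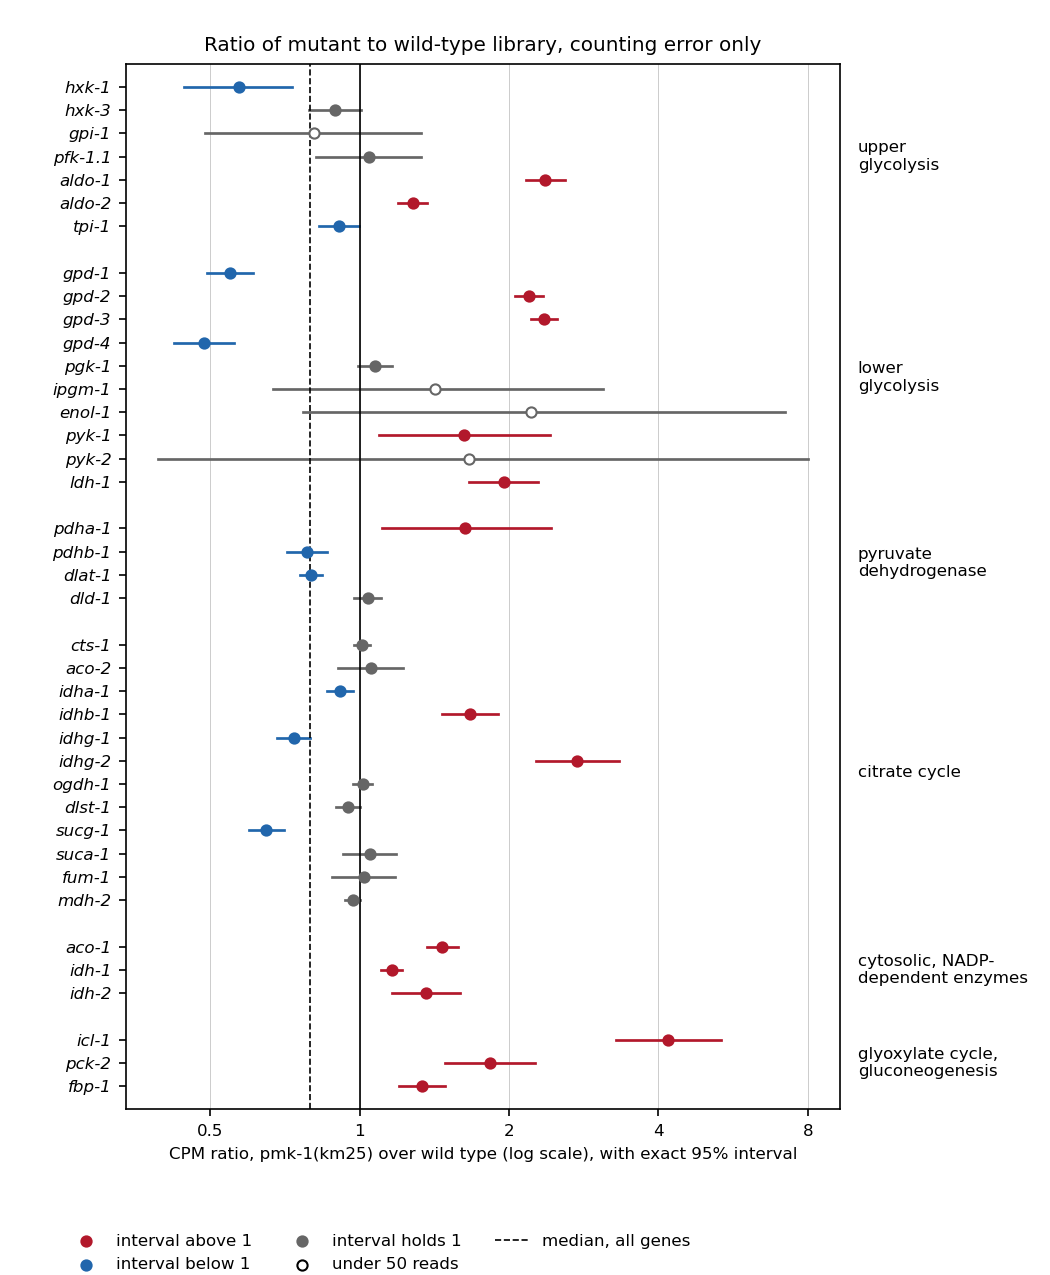
CPM ratio of the mutant to the wild-type library for the 39 listed genes in pathway order on a log scale, with bars for the exact 95% interval from counting error. Ratios ran from 0.486 for gpd-4 to 4.18 for icl-1, and the dashed line is the median of all genes at the read level of 50. With body-tissue scaling all points move left by a factor of 2.23.

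How much of each gene the reads sampled differed widely and sets which values can be compared. Reads were counted per coding sequence ID, and 14 of the 39 genes were listed under an ID with an isoform letter. In the wild type the reads covered at most 72.7% of the listed length in these 14 genes (dld-1), and at most 36.9% in the other 13. Among the 25 genes without a letter, 21 were covered over at least 96.4% of their length, and the remaining 4 were the near-identical gpd genes. The same split was present in all IDs with at least 50 reads, where the median coverage in the wild type was 61.3% for 928 IDs with a letter and 98.3% for 4259 without. An ID with a single read had 49 covered bases, while the 6 reads of enol-1 in the wild type covered 100 bases of its listed 1398. A ratio of a gene with a letter therefore describes the sampled stretch and can reflect the use of isoforms, and its level in RPKM (reads per kilobase of listed length, scaled to 1 M reads) is not comparable with that of a fully covered gene.

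**Figure D2:**
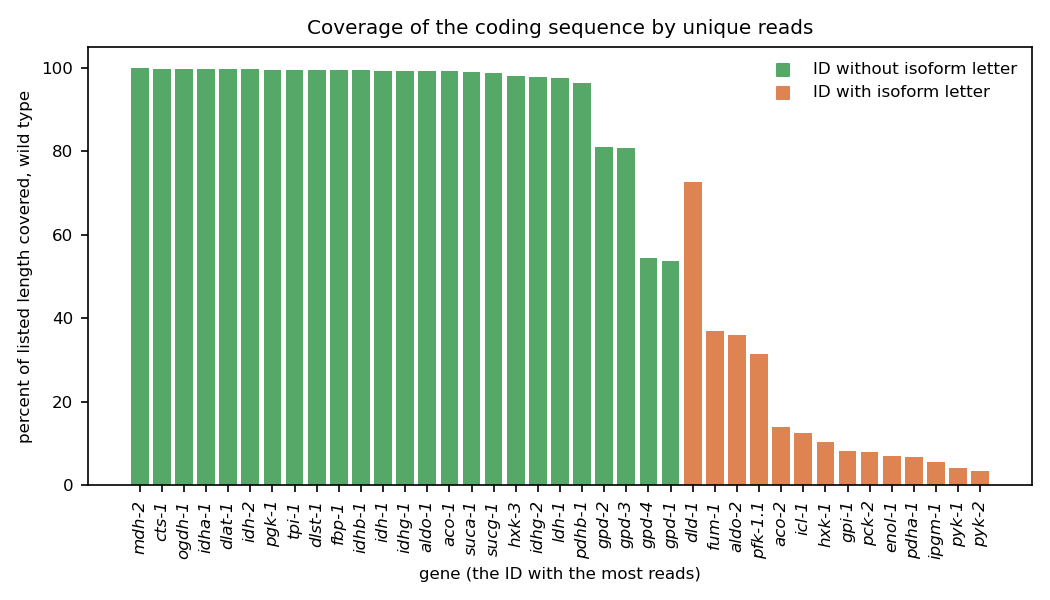
Percent of the listed coding length that unique reads covered in the wild-type library, for the ID with the most reads of each gene, with IDs without an isoform letter in green and those with a letter in orange. Among the orange bars the highest is dld-1 at 72.7%, and the low green bars at the right are the 4 gpd genes.

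Levels were ranked among the genes covered over at least 50% of their length. mdh-2 (F20H11.3), the mitochondrial malate dehydrogenase, stood at 1054 RPKM in the wild-type library and 1021 in the mutant, and cts-1 (T20G5.2), the citrate synthase, at 734 and 743 RPKM. In the wild type these were followed by the NADP-dependent isocitrate dehydrogenase idh-1 at 461 RPKM and the acetyltransferase subunit dlat-1 at 406. In the mutant gpd-3 at 647 RPKM and idh-1 at 535 came next. RPKM divides by the whole listed length, of which unique reads could reach only a part in the gpd genes. Per kilobase of covered sequence in the mutant, gpd-3 at 798 stood above cts-1 at 744, and gpd-2 at 614 above idh-1 at 536, while mdh-2 stayed highest at 1024. aldo-2, left out of this ranking by the 50% limit, stood at 850 in the mutant by that measure. The lowest level among the ranked genes was that of idhg-2, at 23.1 RPKM in the wild type. For the mutant it was that of idh-2, at 52.8.

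**Figure D3:**
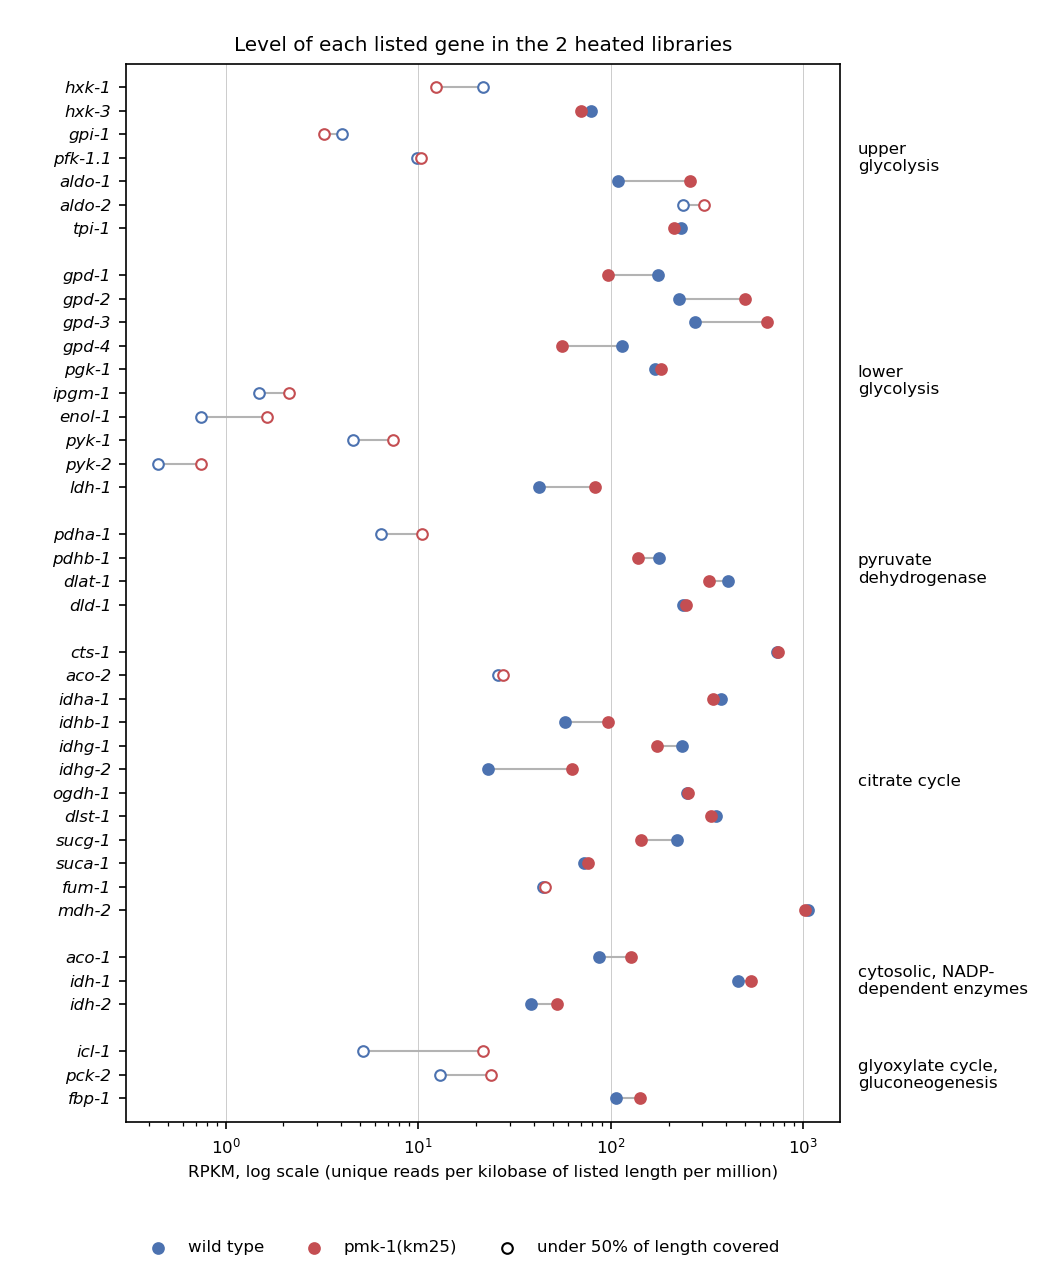
Level of each listed gene in RPKM on a log scale in the wild-type (blue) and mutant (red) libraries, with open symbols for genes whose reads covered under 50% of the listed length. mdh-2 (1054 and 1021 RPKM) and cts-1 (734 and 743 RPKM) lie furthest right with little distance between the libraries, while gpd-2, gpd-3, aldo-1, idhg-2 and icl-1 were higher in the mutant by more than 2-fold.

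Upper glycolysis, from glucose to the triose phosphates, held genes on both sides of 1. Pooled over its 7 listed genes, reads were 4212 in the wild-type library and 4835 in the mutant, a ratio of 1.27 (1.22 to 1.32) that turned to 0.57 with body-tissue scaling. The aldolase genes gave 2218 and 3250 of these reads, so the excess rests on them. Hexokinase phosphorylates glucose and starts the pathway. hxk-1 (F14B4.2) had 190 reads in the wild-type library and 98 in the mutant and was 1.75-fold lower (1.37 to 2.26), from reads over 155 bases, 10.3% of its listed length. hxk-3 (Y77E11A.1), covered over 98.1% of its length, had 619 and 499 reads, a ratio of 0.892 (0.791 to 1). The intervals of these hexokinase genes do not overlap, although they rest on very unequal lengths. gpi-1 (Y87G2A.8), the isomerase that follows, had 41 and 30 reads and a ratio of 0.809 (0.488 to 1.33). The phosphofructokinase pfk-1.1 (Y71H10A.1) catalyses the committed step and had 140 and 132 reads, a ratio of 1.04 (0.816 to 1.33).

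The aldolase step stood out within upper glycolysis. Aldolase cuts fructose-1,6-bisphosphate into the triose phosphates and is encoded by aldo-1 (T05D4.1) and aldo-2 (F01F1.12). aldo-1 had 695 reads in the wild-type library and 1489 in the mutant and was 2.37-fold higher (2.16 to 2.6). With body-tissue scaling the ratio was 1.06 (0.971 to 1.16), so this difference was lost. aldo-2 had 1523 and 1761 reads and was 1.28-fold higher (1.19 to 1.37), which turned below 1 with body-tissue scaling. aldo-1 thus took 31.3% of the family's unique reads in the wild type (29.4 to 33.3%) and 45.8% in the mutant (44.1 to 47.5%). Since the reads of aldo-2 covered 36% of its length against 99.2% for aldo-1, these shares overstate aldo-1, and per kilobase of covered sequence they were 14.2% and 23.5%. tpi-1 (Y17G7B.7), which interconverts the triose phosphates, had 1004 and 826 reads, a ratio of 0.91 (0.829 to 0.999).

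The glyceraldehyde-3-phosphate dehydrogenase genes, which start the energy-yielding steps of lower glycolysis, split, with library totals, into pairs that differed in opposite directions. gpd-2 (K10B3.8) had 1351 reads in the wild-type library and 2678 in the mutant and was 2.19-fold higher (2.05 to 2.34). gpd-3 (K10B3.7) had 1631 and 3473 reads and was 2.35-fold higher (2.22 to 2.5). In contrast to this pair, gpd-1 and gpd-4 were lower in the mutant. gpd-1 (T09F3.3) had 1048 and 520 reads and was 1.82-fold lower (1.64 to 2.03). gpd-4 (F33H1.2) had 682 and 300 reads and was 2.06-fold lower (1.79 to 2.36), just inside the 2-fold limit, and it was not called with TMM or median-of-ratios factors. With body-tissue scaling gpd-2 stood at 0.983 (0.921 to 1.05) and gpd-3 at 1.06 (0.996 to 1.12), so the excess of this pair was gone. gpd-1 and gpd-4 were then further below 1, at 0.246 and 0.218.

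The balance between these pairs does not depend on how the libraries are scaled. gpd-1 and gpd-4 together took 36.7% of the family's 4712 unique reads in the wild type (35.3 to 38.1%) and 11.8% of 6971 in the mutant (11 to 12.5%). The 4 sequences are near-identical, and reads that fit more than 1 of them were left out. What was counted came from 53.8% and 54.4% of the length of gpd-1 and gpd-4 and from 81% and 80.9% of gpd-2 and gpd-3 in the wild type. In the mutant these were 53.4%, 52.2%, 81.3% and 81.1%. Per kilobase of covered sequence gpd-1 and gpd-4 held 46.5% of the family in the wild-type library and 17% in the mutant. The absolute level of each gene is uncertain for the same reason.

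**Figure D4:**
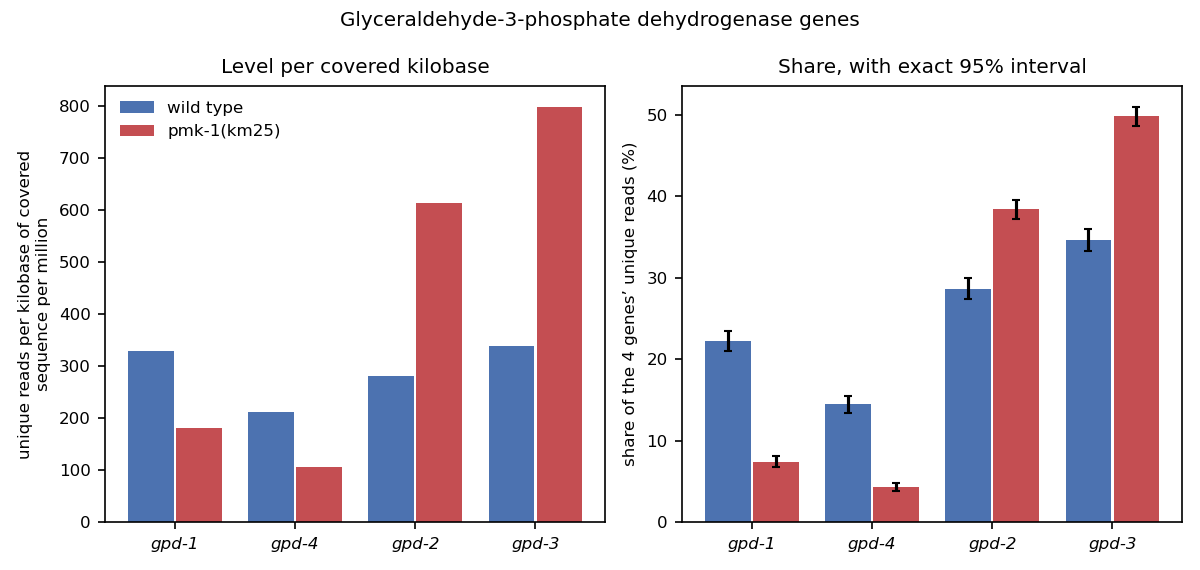
Left, unique reads of the 4 gpd genes per kilobase of covered sequence, scaled to 1 M reads. Right, share of each gene in the family's unique reads, with the exact 95% binomial interval. In the wild type (blue) gpd-1 and gpd-3 stood at 328 and 340 on the left, and in the mutant (red) at 181 and 798; with body-tissue scaling the red bars on the left are divided by 2.23 and the right panel is unchanged.

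gpd-2 and gpd-3 are neighbours on the X chromosome and are known to be transcribed as an operon with mai-1, a gene related to mitochondrial ATP synthase inhibitors. mai-1 (K10B3.9), added after its values were seen, had 72 reads in the wild-type library and 121 in the mutant and was 1.86-fold higher (1.38 to 2.52), which turned below 1 with body-tissue scaling. Its interval overlaps those of gpd-2 and gpd-3. gpd-1 and gpd-4 lie on chromosome II.

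The genes after this step were less far apart, and several were barely sampled. pgk-1 (T03F1.3), the phosphoglycerate kinase that makes the first ATP of lower glycolysis, had 1231 and 1196 reads, a ratio of 1.07 (0.991 to 1.16). ipgm-1 (14 and 18 reads), the phosphoglycerate mutase, enol-1 (6 and 12 reads), the enolase, and the pyruvate kinase gene pyk-2 (4 and 6 reads) had intervals that reached 1, and differences at these steps were not detectable with so few reads. All of them were listed under an ID with an isoform letter, and reads covered 3.5 to 7.15% of their length in the wild type. Whether reads shared between isoforms were left out of the counts was not tested. pyk-1 (F25H5.3), the other pyruvate kinase gene, had 45 and 66 reads over its isoforms and was 1.62-fold higher (1.09 to 2.42). Each of its isoform IDs had under 50 reads. Isoform F25H5.3a had 37 and 34 reads, a ratio of 1.02 (0.619 to 1.66), and F25H5.3b had 4 and 22 reads, a ratio of 6.08 (2.07 to 24.3). These intervals do not overlap, but that of F25H5.3c (4 and 9 reads, 0.694 to 11.1) overlaps both. F25H5.3d had 0 and 1 reads. ldh-1 (F13D12.2), the lactate dehydrogenase that regenerates NAD+ when oxygen is short, had 246 and 434 reads and was 1.95-fold higher (1.66 to 2.29), just outside the 2-fold limit. It was 2.08-fold higher with TMM and 2.02-fold with median-of-ratios factors, where it was called. The excess of pyk-1 and ldh-1 turned below 1 with body-tissue scaling. Pooled over the 10 genes of lower glycolysis, the ratio was 1.54 (1.49 to 1.59), which the gpd genes dominate, and it turned to 0.69 with that scaling.

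Subunits of the pyruvate dehydrogenase complex, which links glycolysis to the citrate cycle, differed less. Pooled reads were 6765 and 5347, a ratio of 0.874 (0.843 to 0.906). The E1 beta subunit gene pdhb-1 (C04C3.3) had 1092 and 773 reads and was 1.28-fold lower (1.16 to 1.4). The E2 core gene dlat-1 (F23B12.5) had 3578 and 2583 reads and was 1.25-fold lower (1.19 to 1.32). Relative to the median of all genes these were log2 differences of -0.02 and 0.01, so both lay where most genes lay. dld-1 (LLC1.3), the E3 subunit shared with the 2-oxoglutarate dehydrogenase complex, had 2049 and 1923 reads, a ratio of 1.04 (0.975 to 1.11). pdha-1 (T05H10.6), the E1 alpha subunit, had 46 and 68 reads over 6.91% of its length in the wild type and was 1.63-fold higher (1.11 to 2.43). That is the opposite side of 1 from its partner pdhb-1, from a stretch of 86 bases, and it too lay below 1 with body-tissue scaling.

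The core enzymes of the citrate cycle were close to equal between the libraries when scaled by library totals. Of its 12 genes, all with at least 50 reads, 7 had an interval that reached 1. Among all 5197 genes at the read level, 839 had such an interval. cts-1 had 5977 and 5467 reads, a ratio of 1.01 (0.975 to 1.05), and mdh-2 had 6258 and 5479, a ratio of 0.968 (0.934 to 1). The 2-oxoglutarate dehydrogenase subunits ogdh-1 (T22B11.5, 4446 and 4076 reads) and dlst-1 (W02F12.5, 2827 and 2425 reads) had ratios of 1.01 (0.971 to 1.06) and 0.949 (0.898 to 1). With TMM factors the intervals of cts-1 (1.04 to 1.12) and ogdh-1 (1.03 to 1.13) excluded 1. With median-of-ratios factors they did so too, at 1.01 to 1.09 and 1.01 to 1.1. The mitochondrial aconitase aco-2 (353 and 336 reads), the fumarase fum-1 (389 and 359 reads) and the succinyl-CoA ligase subunit suca-1 (553 and 524 reads) lay between 1.02 and 1.05. Pooled over the 12 genes the ratio was 0.969 (0.952 to 0.986), which became 1.03 with TMM factors, 1.004 with median-of-ratios factors and 0.435 with body-tissue scaling. The group's median log2 ratio of 0.02 was 0.35 above that of all genes.

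With library totals, the citrate cycle genes whose interval excluded 1 encode subunits of NAD-dependent isocitrate dehydrogenase and of succinyl-CoA ligase. ogdh-1, dlst-1 and suca-1 also encode subunits of enzymes with several parts, and their intervals reached 1. The NAD-dependent isocitrate dehydrogenase, a rate-controlling enzyme of the cycle, has alpha, beta and gamma subunits. idha-1 (F43G9.1) had 2332 and 1923 reads, a ratio of 0.912 (0.858 to 0.969). idhb-1 (C37E2.1) had 381 and 575 reads and was 1.67-fold higher (1.46 to 1.9), though below 1 with body-tissue scaling. The gamma genes lay on opposite sides of 1. idhg-1 (F35G12.2) had 1627 reads in the wild-type library and 1084 in the mutant and was 1.36-fold lower (1.26 to 1.47). Relative to the median of all genes this was a log2 difference of -0.11, so idhg-1 lay near most genes. idhg-2 (C30F12.7) had 150 and 372 reads and was 2.74-fold higher (2.26 to 3.34). idhg-2 took 8.44% of the reads of this pair in the wild type (7.19 to 9.83%) and 25.5% in the mutant (23.3 to 27.9%). Both genes were covered over at least 97.9% of their length, so this balance depends neither on coverage nor on scaling, and the ratio of idhg-2 was 1.23 (1.02 to 1.5) with body-tissue scaling.

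Succinyl-CoA ligase makes GTP or ATP depending on its beta subunit. The GTP-specific subunit gene sucg-1 (C50F7.4) had 1595 and 936 reads and was 1.54-fold lower (1.42 to 1.67), 0.29 below the median of all genes on the log2 scale. The ATP-specific gene suca-1 (F47B10.1) had a ratio of 1.05 (0.928 to 1.18). The share of suca-1 in the reads of this pair was 25.7% in the wild type (23.9 to 27.6%) and 35.9% in the mutant (33.4 to 38.4%). The alpha subunit genes, which are no members, differed likewise, with sucl-1 1.93-fold higher (1.72 to 2.17) and sucl-2 at a ratio of 0.798 (0.721 to 0.884), and both lay below 1 with body-tissue scaling.

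Relatives of the citrate cycle enzymes that work outside it, or with NADP, were all higher with library totals and all below 1 with body-tissue scaling. aco-1 (ZK455.1), the cytosolic aconitase related to the iron regulatory proteins of mammals, had 1345 and 1785 reads and was 1.47-fold higher (1.37 to 1.58). idh-1 (F59B8.2), the cytosolic NADP-dependent isocitrate dehydrogenase, which supplies NADPH, had 3307 and 3469 reads and was 1.16-fold higher (1.11 to 1.22). idh-2 (C34F6.8), its mitochondrial counterpart, had 293 and 361 reads and was 1.36-fold higher (1.16 to 1.6). The share of idh-2 in the reads of this pair was 8.14% (7.27 to 9.08%) and 9.43% (8.52 to 10.4%), with overlapping intervals.

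The glyoxylate cycle gene had the largest ratio of all members. icl-1 (C05E4.9), which in the worm encodes isocitrate lyase and malate synthase in a single protein, had 87 reads in the wild-type library and 329 in the mutant and was 4.18-fold higher (3.29 to 5.36). Its reads covered 12.5% of the listed length in the wild-type library and 12.6% in the mutant, so the ratio describes about 363 of its bases. With body-tissue scaling it was 1.88 (1.48 to 2.4). The gluconeogenic genes lay on the same side with library totals. pck-2 (R11A5.4), a phosphoenolpyruvate carboxykinase, had 148 and 245 reads over 7.94% of its length and was 1.83-fold higher (1.49 to 2.26). fbp-1 (K07A3.1), the fructose-1,6-bisphosphatase, was covered over 99.4% of its length, had 630 and 762 reads and was 1.34-fold higher (1.2 to 1.49). Pooled over these 3 genes the ratio was 1.71 (1.57 to 1.86), which turned to 0.766 with body-tissue scaling because pck-2 and fbp-1 then lay below 1.

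Neighbouring pathways were described with lists of genes chosen with earlier results known. Over all genes, 17.6% were called higher and 1.75% lower. Of 7 genes of the pentose phosphate pathway, 6 reached 50 reads and 0 were called in either direction. Among them the ribose-5-phosphate isomerase gene rpia-1 was 1.46-fold lower (1.28 to 1.66), gspd-1, the glucose-6-phosphate dehydrogenase that makes NADPH, was 1.35-fold lower (1.2 to 1.51), tkt-1, the transketolase, had a ratio of 0.954 (0.923 to 0.986), and F08F8.7 had a ratio of 1.1 (0.838 to 1.43). The log2 ratios of rpia-1 and gspd-1 were -0.54 and -0.43, where the median of all genes was -0.33. Of 13 glycogen and trehalose genes, 9 reached 50 reads, and 1 was called higher and 0 lower. That gene was tps-2, a trehalose-6-phosphate synthase, with 422 and 956 reads and a ratio of 2.51 (2.23 to 2.82). The trehalase genes tre-3 and tre-5 had ratios of 1.93 (1.58 to 2.35) and 1.92 (1.32 to 2.83). Divided by 2.23, as in body-tissue scaling, the ratio of tps-2 stays little above 1 and those of tre-3 and tre-5 lie below 1. T04A8.7, a glycogen branching enzyme gene, had 1916 and 976 reads and was 1.78-fold lower (1.64 to 1.92).

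Of 21 partners of pyruvate metabolism and the citrate cycle, 15 reached 50 reads. Of these, 1 was called higher and 0 lower, where 17.6% and 1.75% of all genes were. got-1.2, an aspartate aminotransferase gene, had 240 and 541 reads and was 2.49-fold higher (2.14 to 2.91). Body-tissue scaling, a division by 2.23, leaves its ratio little above 1, with an interval that reaches 1. sucl-1 was the next highest. The kinase and the phosphatase that switch pyruvate dehydrogenase off and on were both lower, pdhk-2 1.46-fold (1.29 to 1.66) and pdp-1 1.64-fold (1.48 to 1.8). The medians of the 3 lists relative to all genes were log2 0.29 for the pentose phosphate pathway, 0.88 for glycogen and trehalose and 0.43 for the partners.

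Chromosomes separated the members in a way the choice of genes did not use. All 7 members on the X chromosome (pfk-1.1, gpd-2, gpd-3, idhb-1, suca-1, aco-1 and idh-2) had ratios above 1, from 1.04 to 2.35, against 16 of the 28 members on autosomes with at least 50 reads. The same held for the genome, where 74.6% of 453 genes on X and 31.9% of 4722 on autosomes had a ratio above 1. Members on X had a median log2 ratio of 0.55, which is -0.10 from the median of all X genes. Members on autosomes had a median of 0.02, which is 0.40 above that of all autosomal genes. With body-tissue scaling all 4 medians lie below 0, and these differences stay. These are descriptions of 2 libraries and no test was made.

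**Figure D5:**
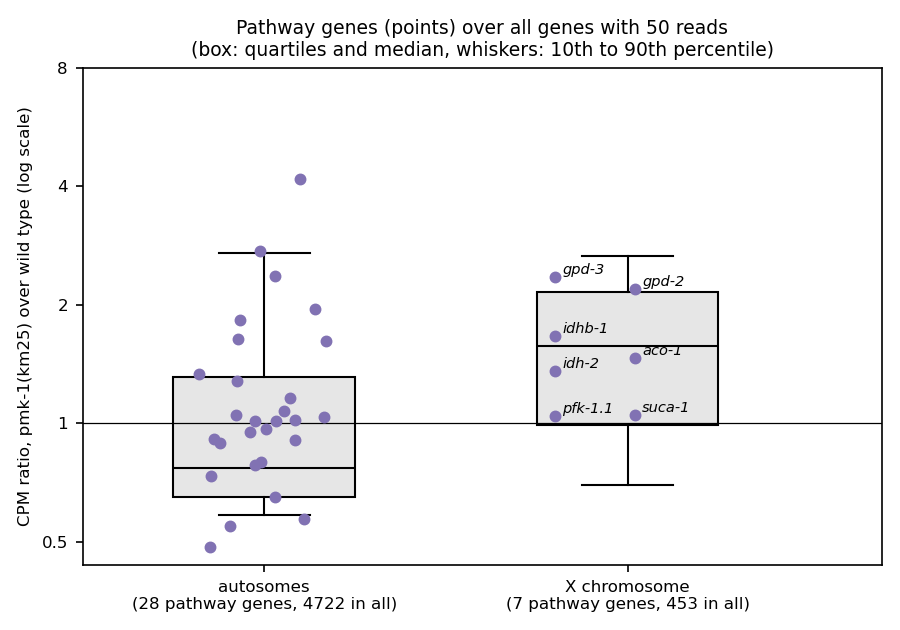
CPM ratio of pathway genes at the read level of 50 (points) by chromosome class on a log scale, over boxes with the quartiles and median of all genes at that level and whiskers from the 10th to the 90th percentile. The 7 members on X lie between 1.04 and 2.35, where the median of all X genes is 1.58, and the median of all autosomal genes is 0.77. Points on autosomes are spread sideways for legibility, and body-tissue scaling divides all values by 2.23.

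Markers of whole tissues also differed between the libraries. Their calls stand beside 17.6% of all genes called higher and 1.75% called lower. Markers of body wall muscle reached 50 reads in 11 of 16 genes, 10 of them called higher. The other, dim-1, had 59 and 31 reads and was 1.72-fold lower (1.1 to 2.75). The summed level of the muscle markers was 3307 CPM in the wild-type library and 7619 in the mutant, with unc-54, myo-3 and unc-22 not analysed here. Summed levels were 407 and 1183 CPM for the 7 of 9 pharynx markers with reads. All 5 of these at the read level were called higher. The sums were 222 and 420 for 11 of 14 neuron markers, with 6 of the 8 at the read level called higher. For 12 of 13 intestine markers they were 2873 and 5613, with 2 of the 7 at the read level called higher. For 8 of 9 hypodermis markers they were 2853 and 5498, with 1 of the 4 at the read level called higher. The last sum is mostly that of the collagen gene col-19 (2390 and 5120 CPM), and the other 7 listed hypodermis markers summed to 462 and 379, a ratio of 0.819 (0.772 to 0.868). Of these 7, lin-26 was 1.86-fold lower (1.71 to 2.02), while col-10 was 1.33-fold higher (1.22 to 1.45). Among the body tissue markers, unc-89, snt-1 and elt-3 had 0 reads in the wild type and cpr-6 had 0 in the mutant. The 17 of 22 sperm markers with reads summed to 49.4 and 548 CPM, and the 13 of them with at least 50 reads were all called higher. Of the 20 oogenic and early embryo markers with reads, from a list of 26, 0 were called higher and 1 lower. Their sums were 22270 and 14202 CPM. By the weaker condition that the interval excluded 1, 19 of the 20 were lower, against 53.6% of all genes. The exception, perm-2, was 1.47-fold higher (1.43 to 1.51) and held 1627 and 2388 CPM of these sums. The pooled ratio of gpd-2 and gpd-3 was 2.28 (2.18 to 2.38). Pooled ratios were 2.3 (2.26 to 2.34) for the muscle markers, 2.91 for pharynx, 1.9 for neurons, 1.95 for intestine and 1.93 for hypodermis. Without the most abundant gene of the list, neurons stood at 2.45, intestine at 2.11 and hypodermis, as above, at 0.819. The gene left out for neurons was snb-1, which was not higher, at a ratio of 0.965 (0.845 to 1.1). For intestine it was asp-1, at 1.86. Single neuron and intestine markers were also called higher, so a ratio above 2 was not particular to muscle. The pooled ratio of gpd-1 and gpd-4 was 0.524 (0.482 to 0.57), and that of the oogenic markers was 0.638 (0.632 to 0.644), a value that perm-2 raises. In whole worms more cells of a type and more RNA per cell cannot be told apart, and the part of tissue makeup in the ratios of the members was not tested.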

How the data were processed

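mRNA from whole worms was selected on oligo(dT) beads, turned into cDNA from random hexamer primers and sequenced by Illumina, per the labels' protocols. The deposited values are raw counts of unique reads for each ID of a coding sequence, per the file headers. The authors also give RPKM, which was matched from count, length and library total to a relative error of 2.77e-08, and, per the file headers, the percent of each listed length with reads on it. The aligner and the build were not given in the sources used here. No coordinates are therefore printed. Every listed length is a multiple of 3, so lengths are coding lengths. No label states that strand was kept, so a gene and an antisense partner that overlap it cannot be told apart.

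The IDs (8820 in the wild type, 9117 in the mutant) were matched by sequence name to the WBcel235 annotation, which was used for names and chromosomes only. Of 9430 IDs, 9383 matched, and IDs of 1 gene were summed. An ID not listed in a library was given 0 reads, which was not tested. A count of 0 allows up to 3 reads, or 0.519 CPM for the wild type and 0.574 for the mutant. Both the limit and the intervals cover counting error only, and without molecular identifiers a read need not stand for a molecule of its own. Ratios and intervals (Clopper-Pearson, 95%) were computed with Python 3.11.15 and scipy 1.17.1. They were run on data simulated with counting error alone, which checks the computation and cannot show error between worms or libraries. Log2 ratios used a prior of 0.5 reads. TMM factors came from edgeR 4.0.16 and median-of-ratios factors from DESeq2 1.42.0, both used for scaling only.

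The members, the lists and the settings were chosen with earlier results of these data known. Genes named are all listed members and, of each of the 3 neighbouring lists, up to 4 genes with the largest absolute log2 ratio among those with at least 50 reads. sucl-2 and mai-1, and the pairs of succinyl-CoA ligase and NADP-dependent isocitrate dehydrogenase, were added after their values were seen. The closing section gives the effect of 11 alternative settings.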

Additional observations from a re-analysis of the deposited data

How the results depend on the processing

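No paired analysis was possible because each genotype has 1 library. For the same reason no replicate could be left out. The counts of 5 members higher and 1 lower became 6 and 0 with TMM (19.4% and 1.14% of all genes) and with median-of-ratios factors (18.7% and 1.46%), 0 and 20 with body-tissue scaling (5.98% and 67.9%), 10 and 4 at a 1.5-fold limit (25% and 27.6% of all genes), and 3 and 0 without the gpd genes, a choice made after seeing the data. All genes called at 2-fold were 90.9% higher, against 8.1% with body-tissue scaling and 47.5% at 1.5-fold. The median of members minus all genes was 0.40 and was 0.0601 with no read level, where the median of all genes rose to 0.01; under the other settings it lay between 0.37 and 0.43. Pooled ratios with TMM factors were 1.35 for upper glycolysis, 1.64 for lower glycolysis, 0.931 for pyruvate dehydrogenase, 1.03 for the citrate cycle and 1.34 for the enzymes outside it. With median-of-ratios factors they were 1.59 for lower glycolysis and 1.004 for the citrate cycle. With body-tissue scaling they were 0.57, 0.69, 0.392, 0.435 and 0.563 in the same order and 0.766 for the glyoxylate and gluconeogenic genes, which stood at 1.51 with the deposited RPKM. The ratio of gpd-2 turned to 0.983 with body-tissue scaling. Counting members on the ID with the most reads, on the mean of both libraries or with at least 50% coverage left both counts within 1.5 times. ipgm-1, enol-1, pyk-2 and gpi-1 had under 50 reads, from at most 8.23% of their listed length, and their differences could not be resolved.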
